A study of Mus musculus with 11 samples.

Results

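The enzymes that add methyl groups to histone lysines and those that take them off were examined across a mouse model of melanoma progression. A gene was a member when its mouse symbol belonged to the Kmt, Kdm, Setd, Nsd, Suv39h, Suv420h, Ehmt, Smyd or Prdm families or was Phf2, Phf8, Setdb1, Setdb2, Setmar, Ash1l, Dot1l or Setbp1. In the gene annotation 68 genes met this rule, and 61 of them were among the 14272 genes of the files, which were limited to genes that reached 1 CPM in 4 or more libraries. The other 7, Prdm1, Prdm8, Prdm12, Prdm13, Prdm14, Kdm4d and Kdm5d, were not analysed here. The rule used symbols only and no measured value, but it was chosen with earlier results of these data known.

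The model has 4 lines that share one origin. Melan-a is a line of immortal, nonmalignant melanocytes of C57BL/6 background with an epithelial shape, and its medium held 200 nM of the phorbol ester PMA. The lines 4C (pre-malignant, not tumorigenic, mesenchymal-like), 4C11- (melanoma that does not metastasize, mesenchymal-like) and 4C11+ (metastatic melanoma, epithelial) descend from melan-a cells that were repeatedly kept from attaching, and all 3 were cultured without PMA. PMA and line cannot be told apart. Each state was therefore represented by 1 line, and the libraries of a line were cultures of that line, so the p-values below measure the spread between cultures. Total RNA was sequenced in 11 libraries, 3 each of 4C, 4C11- and 4C11+ and 2 of melan-a, numbered 2 and 3.

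Histone lysine methylation is written by SET domain proteins, and by Dot1l outside that fold, with S-adenosylmethionine as the methyl donor. It is erased by flavin-dependent amine oxidases (Kdm1a, Kdm1b) and by Jumonji dioxygenases that need iron and alpha-ketoglutarate. Methylation of H3K4 marks promoters and enhancers in use, H3K36 and H3K79 methylation accompanies transcribed gene bodies, and H3K9, H3K27 and H4K20 methylation is linked to silent or compact chromatin. In melanocytic cells the pigment program is run by Mitf and Sox10, and changes in histone methylation have been studied as part of the switch between differentiated and mesenchymal-like melanoma states. Several family members, among them many PRDM and SMYD proteins, also act as DNA-binding regulators or methylate proteins other than histones.

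The values are log2 CPM. The depth of the libraries, estimated from the value at 1 low read step, was about 3500000 to 7420000 reads. A value at 3 reads lay between -2.01 and 0.15 on the log2 scale. The values look quantile normalized, so the depths are approximate and the bounds below hold on the deposited scale. A gene at 3 reads or fewer in all libraries of a line is called absent from that line here. A fold change against such a line is given as a lower bound with 3 reads in each of its libraries. An adjusted p beside such a bound comes from the fit of the deposited values, not from the bounded difference. Libraries without reads of a gene sit at their lowest value, so the spread between them does not measure variation in expression. The markers of melanocytes set the lines apart. The summed level of their 7 genes was 10.8 and 13.1 in melan-a and 13.4 to 13.7 in 4C11+, against 1.59 to 3.52 in 4C and 4C11-, where Tyr was at 3 reads or fewer in all 6 libraries. In melan-a the pigment genes Tyr and Pmel were low as well, with means of 0.52 and 2.68 against 8.52 and 11.91 in 4C11+. The 4 measured of 7 fibroblast markers summed to 10.9 to 11.4 in 4C and 4C11- and to 4.31 to 7.68 in the epithelial lines. The 2 measured of 5 leukocyte markers summed to 6.37 in melan-a replicate 2, where Cd68 was at 6.35 against 2.67 in replicate 3, and to 1.96 to 3.11 in the remaining libraries. The sum in replicate 2 was nearly all Cd68, and the other measured marker, Csf1r, lay between -0.24 and 0.40 in melan-a. The fibroblast marker Pdgfrb also split the libraries of melan-a, at 6.90 in replicate 2 and 0.89 in replicate 3. The 2 measured of 5 keratinocyte markers summed to -0.35 to 2.35 over all libraries. Of 4 endothelial markers only Cdh5 was measured, at 6.54 to 7.43 in 4C11- and at most 4.01 elsewhere. The part of these differences in the results on the enzymes was not tested, and in bulk RNA fewer cells that express a gene cannot be told apart from less RNA per cell.

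Most members were expressed in all lines. Per kilobase of exon, the highest levels were those of the H3K9 methyltransferase Ehmt2 (5.63, log2 CPM per kilobase), the H3K4 demethylase Kdm1a (4.90), the H4K20 methyltransferase Kmt5a (4.71) and the H3K9 demethylase Kdm4a (4.64), and the lowest were those of Smyd1 (-3.53), Prdm16 (-2.53) and Prdm6 (-2.38). The range of a member between lines had a median of 0.97 on the log2 scale, against a median SD within lines of 0.38. For 28 of the 61 members the lowest line mean was that of 4C11+, compared with 12 for melan-a, 10 for 4C and 11 for 4C11-. That is 45.9% of the members for 4C11+, where the line was lowest for 28.5% of all genes, and the difference was not tested.

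**Figure D1:**
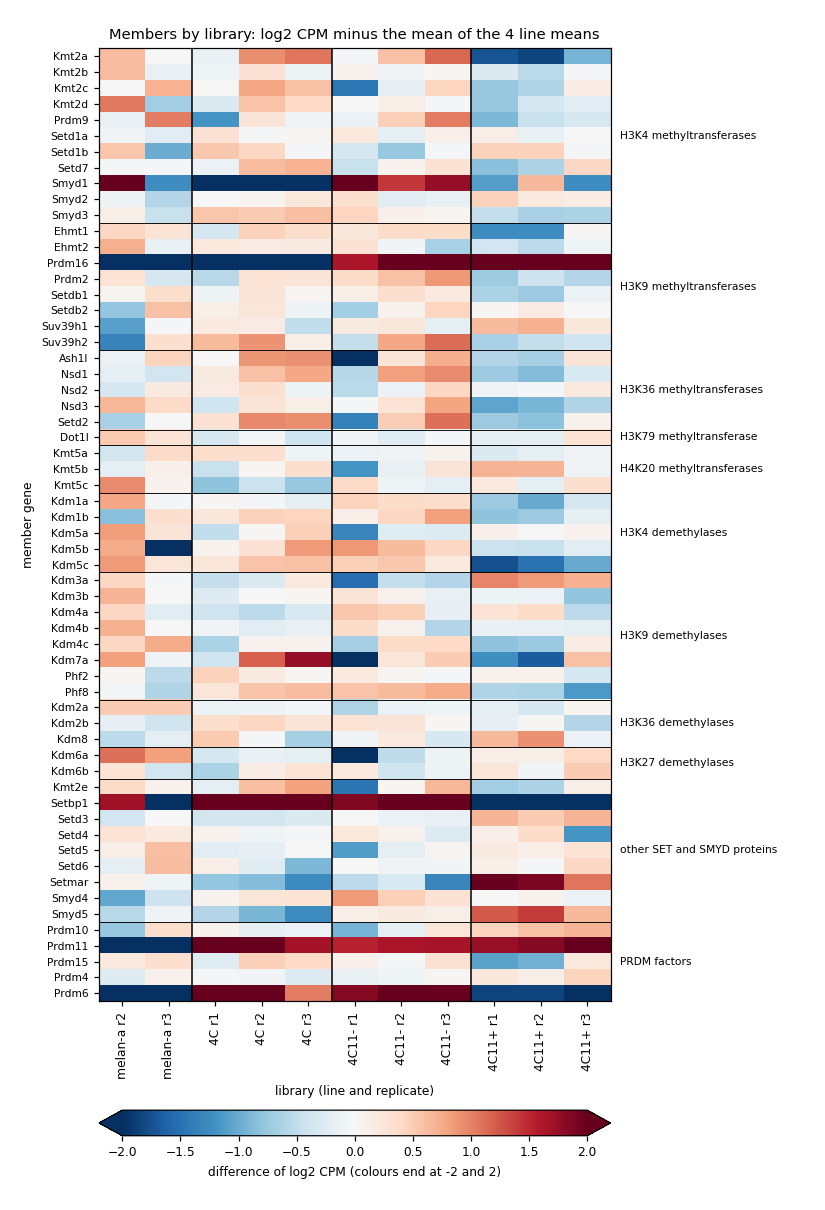
Each row is 1 member reported by name, grouped by role, and each column 1 library; colour gives the log2 CPM minus the mean of the 4 line means, and the scale ends at -2 and 2. Prdm16, Prdm11, Prdm6 and Setbp1 show the strongest contrasts between lines, and Kmt2a and Kdm5c are low in all 3 libraries of 4C11+.

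The share of members that passed the test was near or below that of all genes in each comparison. When 4C11+ was set against the average of the other 3 lines, 19 members passed the test (limma, adjusted p under 0.05), 7 higher and 12 lower, which is 31.1% of the members. Of all genes 34.0% passed, 18.3% higher and 15.8% lower. The median difference of the members was -0.31 and that of all genes 0.08 (log2). Between 4C11+ and 4C11- it was 17 members (5 higher, 12 lower), and 31.1% of all genes (15.6% higher, 15.4% lower). Between the mesenchymal-like lines (4C and 4C11-) and the epithelial lines (melan-a and 4C11+) it was 18 members (12 higher, 6 lower), and 29.7% of all genes (14.3% higher, 15.3% lower). Between 4C11+ and melan-a it was 10 members (6 higher, 4 lower), and 15.9% of all genes (8.39% higher, 7.52% lower). Between 4C and melan-a it was 4 members (3 higher, 1 lower), against 15.2% of all genes (7.64% higher, 7.55% lower). Between 4C11- and 4C it was 1 member, which was higher, against 1.67% of all genes (1.26% higher). These comparisons share libraries, so their counts are not independent. The results below are therefore about single members and not about the enzymes as a group.

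The largest differences were those of members that were absent from whole lines. Because the files hold only genes at 1 CPM in 4 or more libraries, such members entered through the lines where they were on. Members near the floor in all lines would be missing, so these contrasts are partly set by that filter. Prdm16, a zinc finger protein with a PR domain that methylates H3K9 and is known for the control of brown fat and of stem cells, was absent from melan-a and 4C. Its values were 2.33, 3.38 and 2.86 in 4C11- and 5.82, 5.76 and 7.07 in 4C11+. All libraries of 4C11+ lay above all of 4C11-, and both tumor lines lay above the 2 lines that form no tumors. Prdm16 was at least 17.3-fold higher in 4C11- than in 4C (limma, adjusted p = 6.64e-05), and 10.3-fold higher in 4C11+ than in 4C11- (3.36 ± 0.49 log2, SE, adjusted p = 0.000313). It was the only member that changed between 4C and 4C11-, and 4C11+ exceeded melan-a by at least 97.9-fold. Mecom, its closest relative and also known as Prdm3, was measured but does not carry a member's symbol. It was at 3.69 and 5.83 in melan-a and at 3.92, 3.57 and 4.36 in 4C11+, and absent from 4C and 4C11- (adjusted p = 1.59e-07 between the mesenchymal-like and epithelial lines). The 2 relatives were thus expressed together in 4C11+ alone.

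Prdm11, a PRDM factor described as a tumor suppressor in lymphoma, was absent from melan-a and present in every derived line. Its values were 4.85, 5.02 and 4.41 in 4C, 4.29, 4.38 and 4.40 in 4C11-, and 4.49, 4.58 and 5.23 in 4C11+. It was at least 35.6-fold higher in 4C than in melan-a (adjusted p = 1.59e-07), and none of the derived lines differed from the one before it past the threshold. Its call between 4C11+ and the other lines rests on its absence from melan-a. Melan-a is also the only line that was grown with PMA.

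Prdm6, a regulator of smooth muscle genes, was present only in the mesenchymal-like lines. It was at 2.23, 1.78 and 0.44 in 4C and at 1.26, 1.77 and 1.59 in 4C11-, and absent from melan-a and 4C11+. These are low levels, and the difference between the phenotypes was at least 3.24-fold (adjusted p = 1.58e-05). Setbp1, which binds the oncoprotein Set and is not itself known as an enzyme, was at 5.08, 5.42 and 5.97 in 4C and at 4.12, 5.24 and 5.33 in 4C11-, and absent from 4C11+. It was at least 29.3-fold lower in 4C11+ than in 4C11- (adjusted p = 0.00122). In melan-a it was at 3.97 in replicate 2 and at 3 reads or fewer in replicate 3, so the 2 libraries disagree by more than any derived line did. Its higher level in 4C than in melan-a (4.80 ± 1.35 log2, adjusted p = 0.0334) was lost without melan-a replicate 3 or without any one library of 4C (highest adjusted p = 0.173 over the alternatives). Smyd1, the SMYD methyltransferase of heart and skeletal muscle, was absent from 4C and 4C11+ and at 1.26, 0.06 and 0.42 in 4C11-. In melan-a it was at 1.35 and at 3 reads or fewer, and no comparison between lines passed the threshold.

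**Figure D2:**
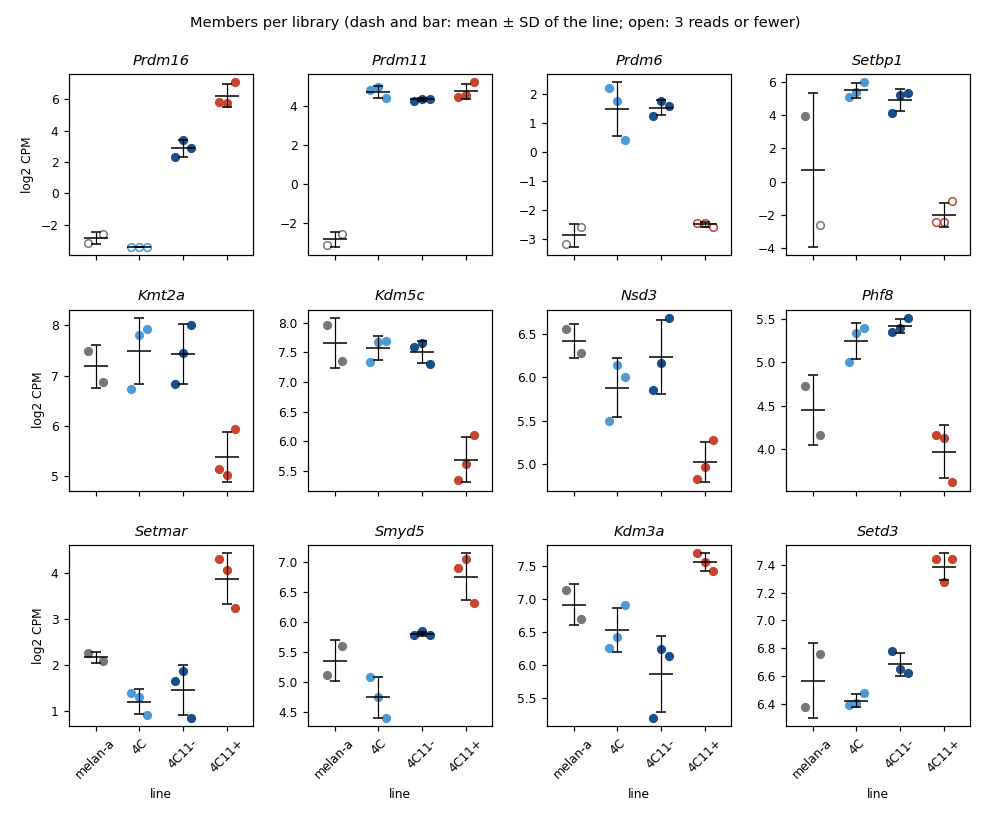
Each panel gives the log2 CPM (y axis, a scale for each gene) of 1 member in the libraries of the 4 lines (x axis); points are libraries, dashes and bars the mean and SD of the line, and open points libraries at 3 reads or fewer. Prdm16 is present in both tumor lines only, Prdm11 in all derived lines and Prdm6 in the mesenchymal-like lines. Setbp1 is present in the mesenchymal-like lines and in 1 library of melan-a. The lower 8 panels show members for which all 3 libraries of 4C11+ lie below or above those of most other lines.

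The start regions of 5 members whose levels separated the lines are shown with the letters of 6 motifs in capitals. The motifs were searched on both strands of the 300 bases from 250 before to 50 after the RefSeq start (GRCm38.p6). They were the E-box CACGTG and the M-box core CATGTG (both bound by Mitf), the GC box GGGCGG, the box named for its letters CCAAT, the CRE half-site TGACG and the TATA box TATAAA, and no motif contains another. Capitals in the other orientation are the reverse complement.
Prdm16, chr4:154636824-154637123, minus strand: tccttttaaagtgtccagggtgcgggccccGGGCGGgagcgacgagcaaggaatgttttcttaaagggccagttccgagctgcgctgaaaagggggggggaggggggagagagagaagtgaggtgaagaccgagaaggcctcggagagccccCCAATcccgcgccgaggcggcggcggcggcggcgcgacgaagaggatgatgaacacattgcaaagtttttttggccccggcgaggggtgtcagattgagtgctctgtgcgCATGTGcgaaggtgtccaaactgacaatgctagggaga
Prdm11, chr2:93046116-93046415, minus strand: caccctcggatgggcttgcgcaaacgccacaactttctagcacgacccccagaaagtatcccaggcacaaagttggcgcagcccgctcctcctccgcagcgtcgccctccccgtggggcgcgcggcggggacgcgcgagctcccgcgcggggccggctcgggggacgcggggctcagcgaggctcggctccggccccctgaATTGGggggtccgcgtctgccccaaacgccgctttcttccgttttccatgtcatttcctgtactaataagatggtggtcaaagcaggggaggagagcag
Kmt2a, chr9:44881240-44881539, minus strand: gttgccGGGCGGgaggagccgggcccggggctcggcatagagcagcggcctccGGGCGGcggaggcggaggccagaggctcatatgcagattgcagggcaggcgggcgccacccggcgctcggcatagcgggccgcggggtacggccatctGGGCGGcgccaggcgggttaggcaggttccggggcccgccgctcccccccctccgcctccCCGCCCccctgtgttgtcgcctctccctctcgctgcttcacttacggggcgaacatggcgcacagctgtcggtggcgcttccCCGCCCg
Kdm5c, chrX:152232977-152233276, plus strand: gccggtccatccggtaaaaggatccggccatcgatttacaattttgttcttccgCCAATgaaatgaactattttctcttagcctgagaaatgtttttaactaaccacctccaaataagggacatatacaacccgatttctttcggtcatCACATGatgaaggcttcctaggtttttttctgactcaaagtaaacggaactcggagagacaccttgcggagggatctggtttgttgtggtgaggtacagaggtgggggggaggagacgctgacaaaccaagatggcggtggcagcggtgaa
Setmar, chr6:108064795-108065094, plus strand: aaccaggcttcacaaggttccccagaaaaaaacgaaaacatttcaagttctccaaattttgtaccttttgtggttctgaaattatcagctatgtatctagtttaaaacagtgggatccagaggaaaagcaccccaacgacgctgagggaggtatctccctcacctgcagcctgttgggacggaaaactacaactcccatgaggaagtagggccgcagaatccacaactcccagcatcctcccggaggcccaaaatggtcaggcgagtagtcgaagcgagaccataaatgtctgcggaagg
The start of Kmt2a held 5 GC boxes and that of Setmar none of the 6 motifs, and the M-box core stood once each at Prdm16 and Kdm5c. A start region was matched for 44 of the 61 members, though those of Smyd1 and Setd5 lay 59952 and 27570 bases from the annotated gene start. Of these 44, 68.2% held a GC box against 35.7% of all 32851 promoters, and 13.6% held the M-box core against 14.2%. The median ratio of observed to expected CpG was 0.87 for members and 0.38 for all promoters. The promoters used for comparison were not limited to the measured genes, and no comparison with the promoters of measured genes was made. These matches describe the letters of the windows only.

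Among the enzymes of H3K4, 2 of the 11 methyltransferases and 3 of the 5 measured demethylases were lower in 4C11+ than across the other lines, and none was higher, where 15.8% of all genes were lower. The other 9 methyltransferases and the other 2 demethylases did not pass. In these counts by mark each member was placed in a single list, though some members act on several marks. Kmt2a, the MLL1 methyltransferase that keeps developmental genes such as the Hox clusters active, was at 7.49 and 6.88 in melan-a, 6.73, 7.80 and 7.94 in 4C, and 6.83, 7.46 and 8.02 in 4C11-. In 4C11+ it was at 5.15, 5.04 and 5.95, below every library of the other lines. The difference was -1.99 ± 0.33 (log2, SE, adjusted p = 0.000796), a level 3.98-fold lower. The related methyltransferases Kmt2b, Kmt2c, Kmt2d, Setd1a and Setd1b did not pass the test, and Smyd3, which was first described at H3K4 and also methylates kinases of the Ras pathway, was 1.72-fold lower (-0.79 ± 0.20, adjusted p = 0.00913).

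Kdm5c, a Jumonji demethylase of H3K4 encoded on the X chromosome, was at 7.96 and 7.36 in melan-a, 7.34, 7.68 and 7.70 in 4C, and 7.59, 7.65 and 7.30 in 4C11-. It was at 5.35, 5.62 and 6.10 in 4C11+. The first 3 lines were close together, and 4C11+ lay apart from all of them, 3.70-fold lower (-1.89 ± 0.21, adjusted p = 4.12e-05). Its paralogs Kdm5a and Kdm5b did not pass the test. Kdm1a (LSD1, the amine oxidase of the CoREST complex) fell by 0.92 ± 0.20 (adjusted p = 0.00473), from means of 7.65, 7.21 and 7.66 in melan-a, 4C and 4C11- to 6.58 in 4C11+. Its relative Kdm1b, which acts in transcribed genes, differed by -0.77 ± 0.27 with overlapping libraries (adjusted p = 0.0489), and this call was lost without melan-a replicate 3, without any one library of 4C, or without 4C11- replicate 2 or 3 or 4C11+ replicate 1 or 2 (highest adjusted p = 0.2).

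Of the 8 H3K9 methyltransferases, Ehmt1, Setdb1 and Prdm2 were lower and Prdm16 higher in 4C11+ than in the other lines. Ehmt1 (GLP, the partner of Ehmt2 in euchromatin) was at 5.22, 5.21 and 6.49 in 4C11+, against 6.11 to 6.91 over the other 8 libraries. The third library of 4C11+ lay within the range of the other lines. Its difference was -1.09 ± 0.28 (adjusted p = 0.0116), and Ehmt2 itself differed by -0.44 ± 0.23 (adjusted p = 0.17). Setdb1, the methyltransferase that silences endogenous retroviruses and is amplified in human melanoma, was at 5.72, 5.62 and 6.23 in 4C11+ and at 6.24 to 6.71 elsewhere (-0.65 ± 0.19, adjusted p = 0.0187). Prdm2 (RIZ1) differed by -0.76 ± 0.24 (adjusted p = 0.0308), again with overlapping libraries. The calls of Ehmt1 and Setdb1 were lost without 4C11+ replicate 1 or 2 (highest adjusted p = 0.0833 and 0.119), and that of Prdm2 without melan-a replicate 2, 4C replicate 2 or 3, 4C11- replicate 2 or any library of 4C11+ (highest adjusted p = 0.134).

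Of the 8 measured H3K9 demethylases, 1 was lower and 1 higher. Phf8, which removes H3K9 and H4K20 methylation at promoters and was higher in the mesenchymal-like lines, was at 4.16, 4.13 and 3.62 in 4C11+ and at 5.01 to 5.51 in the 6 mesenchymal-like libraries, with 4.73 and 4.16 in melan-a. Kdm3a, a demethylase induced by hypoxia, was at 7.69, 7.56 and 7.42 in 4C11+, above the 5.19 to 7.13 of the other libraries, and was 2.18-fold higher (1.13 ± 0.25, adjusted p = 0.0045). Its paralog Kdm3b did not pass the test.

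Among the 5 listed H3K36 methyltransferases Nsd3 was lower in 4C11+. This enzyme was at 4.83, 4.97 and 5.28 in 4C11+, and the lowest of the other libraries was at 5.50. The difference was -1.15 ± 0.23 (adjusted p = 0.00254), 2.22-fold. Nsd1 differed by -0.84 ± 0.31 and missed the threshold (adjusted p = 0.0537), Nsd2 stayed between 7.69 and 8.64 in all libraries, and Setd2, which trimethylates H3K36, differed by -0.65 ± 0.44 (adjusted p = 0.272).

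Setmar, Smyd5 and Setd3 were higher in 4C11+. Setmar, a SET domain protein linked to H3K36 methylation, was at 4.31, 4.06 and 3.25 in 4C11+ and between 0.85 and 2.25 in the other libraries, 4.79-fold higher (2.26 ± 0.34, adjusted p = 0.000436). Smyd5, described to methylate H4K20 and a ribosomal protein, was at 6.90, 7.06 and 6.31, above the 4.41 to 5.85 of the others, 2.73-fold higher (1.45 ± 0.22, adjusted p = 0.000491). Setd3, the histidine methyltransferase of actin, was at 7.45, 7.28 and 7.44, above the 6.38 to 6.78 of the others (0.83 ± 0.15, adjusted p = 0.00164). Of the other SMYD proteins, Smyd3 was lower (above), and Smyd1, Smyd2 and Smyd4 did not pass. Of the 61 members, 14 showed no overlap between the libraries of 4C11+ and those of the other lines, where 20.6% of all genes did. None of the 3 listed H4K20 methyltransferases, the 3 listed H3K36 demethylases and the 2 listed H3K27 demethylases passed in this comparison. Smyd5 and Setmar, which passed, were listed with the other SET and SMYD proteins and not by mark.

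**Figure D3:**
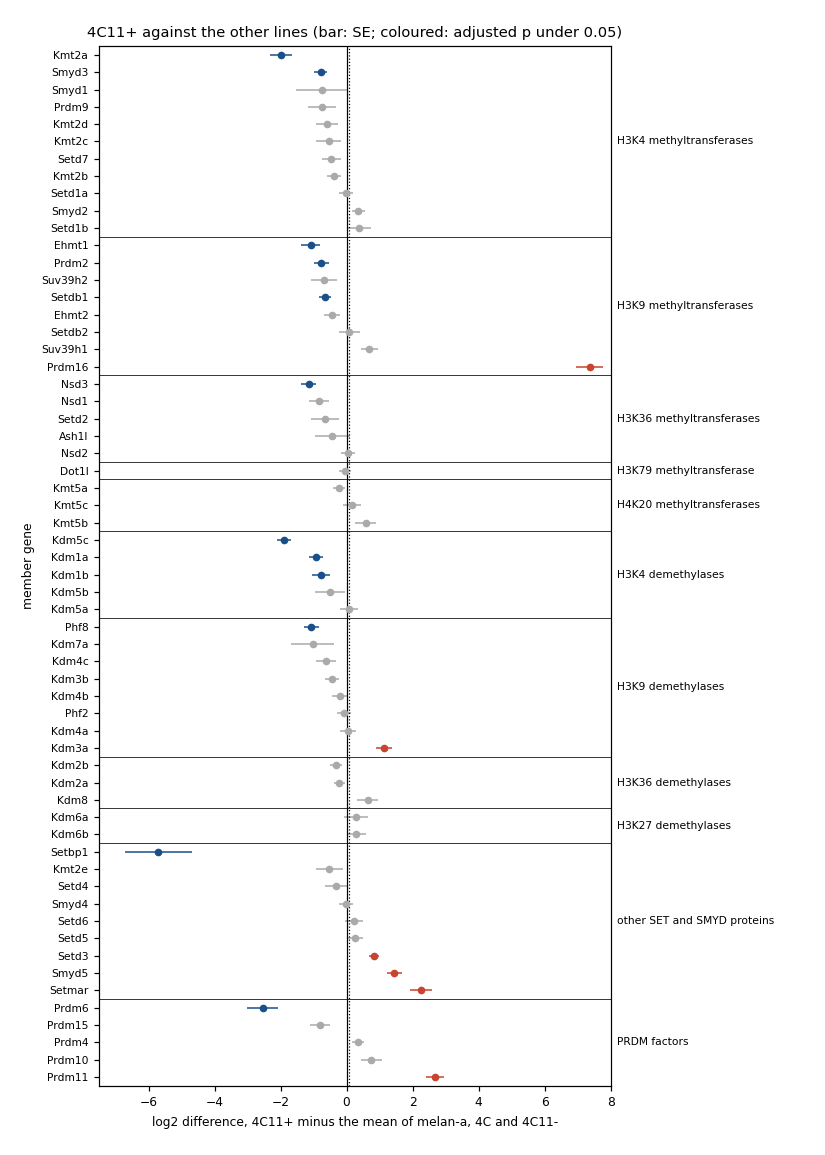
The log2 difference between 4C11+ and the mean of melan-a, 4C and 4C11- (x axis) is given for each member reported by name (y axis, grouped by role), with bars for the SE; coloured points passed limma at an adjusted p under 0.05, and the dotted line is the median of all genes, 0.08. Kmt2a lies at -1.99 and Kdm5c at -1.89, and Prdm16 and Setmar lie to the right of 0; values of Prdm16, Prdm11, Prdm6 and Setbp1 involve lines at 3 reads or fewer and are not exact sizes.

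The members lower in 4C11+ can also be set against 4C11- and against melan-a, in comparisons that share the 4C11+ libraries. Kdm5c was 3.53-fold lower than in 4C11- (adjusted p = 0.000207) and 3.91-fold lower than in melan-a (adjusted p = 0.000811), the other epithelial line. Kmt2a was 4.17-fold lower than in 4C11- (adjusted p = 0.00225) and 3.50-fold lower than in melan-a (adjusted p = 0.0185). Nsd3 and Kdm1a were likewise below both lines, with differences from melan-a of -1.39 ± 0.31 (adjusted p = 0.0111) and -1.06 ± 0.27 (adjusted p = 0.0225). Phf8 was 2.73-fold lower than in 4C11- (adjusted p = 0.00149), but its difference from melan-a did not pass the threshold. Against melan-a, the count of 10 fell to 4 without melan-a replicate 2 or 4C11+ replicate 1 and to 5 without 4C11+ replicate 2, and the calls of Kmt2a, Kdm1a, Setd3 and Setmar were lost in each case. The call of Nsd3 was lost without melan-a replicate 2 or 4C11+ replicate 1 and that of Smyd5 without melan-a replicate 2, whereas Kdm5c, Prdm11 and Prdm16 kept theirs under all 19 alternatives. Against 4C11-, the count of 17 fell to 11 without 4C11- replicate 2 or 4C11+ replicate 1, with Ehmt1, Kdm1b, Setd3, Setdb1, Smyd3 and Smyd5 lost in both cases, and 11 of the 17 calls held under all 19 alternatives. The step from the non-tumorigenic to the tumorigenic line was compared between 2 pairs, melan-a to 4C11+ (epithelial) and 4C to 4C11- (mesenchymal-like). It differed for 6 members (9.84%), with 2 higher and 4 lower in the epithelial pair relative to the other. Of all genes 9.83% differed (3.95% higher, 5.88% lower). Each pair sets a single line against a single line, so phenotype and line cannot be told apart.

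Whether the enzymes followed the epithelial or mesenchymal-like shape of the cells was asked with the means of the 2 lines of each phenotype. Of the 18 members that passed the test, only 6 also had libraries that did not overlap, where 13.6% of all genes passed both. They were Prdm6 and Setbp1 (above), Phf8, Smyd4, Kdm6a and Setmar. Phf8 was 2.18-fold higher in the mesenchymal-like lines (1.12 ± 0.20, adjusted p = 0.00107). Smyd4, a SMYD protein studied in heart development, was at 4.56 to 5.34 in the mesenchymal-like and 3.45 to 4.55 in the epithelial libraries (0.74 ± 0.20, adjusted p = 0.0142). Kdm6a (UTX), the X-encoded demethylase of H3K27, was at 6.34 and 6.05 in melan-a, 5.37, 5.36 and 5.64 in 4C11+, 4.88, 5.09 and 5.05 in 4C, and 3.01, 4.73 and 5.14 in 4C11-. It was 2.26-fold lower in the mesenchymal-like lines (-1.17 ± 0.33, adjusted p = 0.0185), while the other listed H3K27 demethylase, Kdm6b, stayed between 2.47 and 3.60 throughout. Smyd4 and Kdm6a lost the call without melan-a replicate 2 (adjusted p = 0.0537 and 0.057).

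The other 12 members of this comparison had overlapping libraries. For Kmt2a (1.18 ± 0.30, adjusted p = 0.0106), Kdm5c (0.87 ± 0.19, adjusted p = 0.00425), Smyd3 (0.75 ± 0.18, adjusted p = 0.00697), Setd3 (-0.42 ± 0.14, adjusted p = 0.0374), Kdm3a (-1.04 ± 0.22, adjusted p = 0.00386) and Smyd5 (-0.78 ± 0.20, adjusted p = 0.0125), at least 1 library of melan-a lay within the range of the mesenchymal-like libraries and all libraries of 4C11+ outside it. Prdm11 passed as well, through its absence from melan-a. Prdm16 also passed, but it was absent from 1 line of each phenotype, melan-a and 4C. Its difference came mainly from the higher level in 4C11+ than in 4C11-. Nsd1 (0.91 ± 0.28, adjusted p = 0.0268) lost its call without melan-a replicate 3, 4C or 4C11- replicate 2 or 3, or 4C11+ replicate 1 or 2. The H3K9 methyltransferase Suv39h2 (1.02 ± 0.36, adjusted p = 0.0499) kept it only without melan-a replicate 3 or 4C11- replicate 1 among the single libraries left out, and Setd3 only without melan-a replicate 2 or 4C11- replicate 1. Kdm1b (0.83 ± 0.25, adjusted p = 0.0239) lost it without melan-a replicate 2, 4C replicate 2 or 3, 4C11- replicate 3 or 4C11+ replicate 1 or 2. Kdm2b, an H3K36 demethylase that recruits Polycomb to CpG islands (0.52 ± 0.16, adjusted p = 0.0299), lost it without melan-a replicate 3, 4C replicate 2, 4C11- replicate 2 or 4C11+ replicate 1 or 3, and Smyd5 without melan-a replicate 3. The highest adjusted p over the alternatives was 0.0763 for Nsd1, 0.214 for Suv39h2, 0.128 for Setd3, 0.101 for Kdm1b, 0.123 for Kdm2b and 0.0537 for Smyd5, and 10 of the 18 calls held under every alternative.

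In the first step, from melan-a to 4C, the H4K20 methyltransferase Kmt5c was the only member that fell. It was at 4.59 and 3.71 in melan-a and 2.83, 3.20 and 2.88 in 4C, a difference of -1.18 ± 0.36 (adjusted p = 0.0497). The call held under 4 of 19 alternatives and was lost without melan-a replicate 2, any library of 4C or 4C11+, or 4C11- replicate 2 or 3 (highest adjusted p = 0.312). The count of 4 in this step was 2 without any one library of 4C, with Kmt5c and Setbp1 lost, and 7 without 4C11- replicate 1, with Kdm6a, Nsd1 and Smyd4 gained. In the next step, from 4C to 4C11-, Prdm16 alone passed, and leaving out melan-a replicate 2 or 3 added Smyd1 for a count of 2. In the third step, from 4C11- to 4C11+, 17 members passed, and the shares of all genes in the 3 steps, 15.2%, 1.67% and 31.1%, had the same order.

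**Figure D4:**
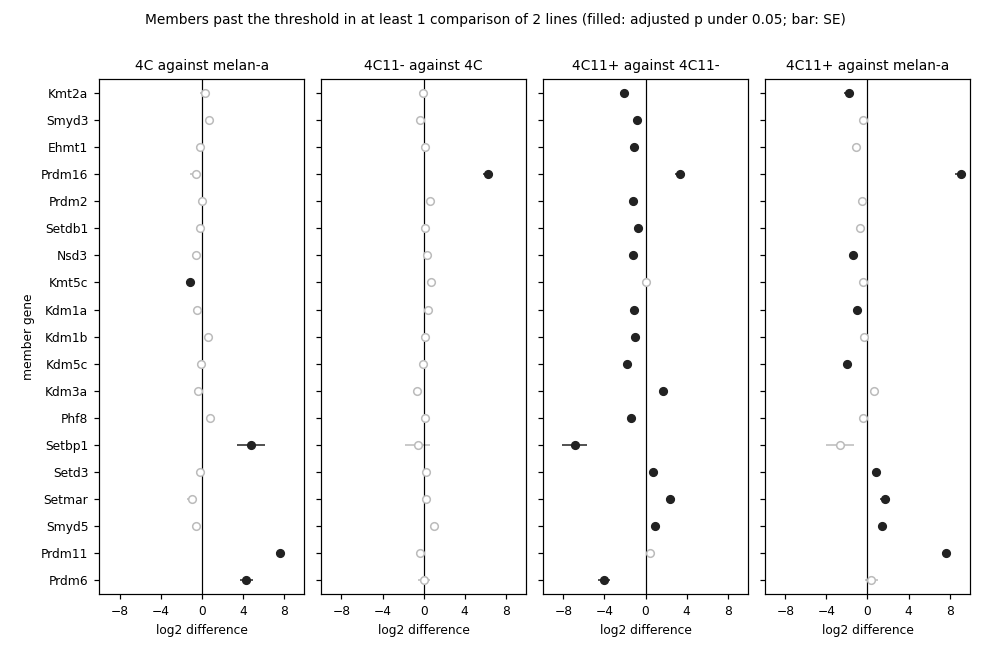
The log2 difference (x axis, SE as bars) is given in 4 panels, 1 for each comparison of 2 lines, for the members reported by name (y axis) that passed the threshold in at least 1 of them; filled points have an adjusted p under 0.05. The first 2 panels hold 4 and 1 filled points and the third holds 17, and Prdm16, Prdm11, Prdm6 and Setbp1 have the largest differences, which are not exact sizes where a line is at 3 reads or fewer.

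Several enzymes central to the field did not pass the test in any of the 6 comparisons. Dot1l, the H3K79 methyltransferase, was at 5.15 to 6.06 in all libraries. Kmt5b, which makes di- and trimethylated H4K20, was at 5.72, 5.72 and 4.98 in 4C11+ and at 3.84 to 5.37 elsewhere (0.58 ± 0.32 against the other lines, adjusted p = 0.185). Suv39h1, the methyltransferase of pericentric heterochromatin, was highest in 4C11+ (6.24, 6.32 and 5.84) and missed the threshold there, both against the other lines (0.69 ± 0.26, adjusted p = 0.0601) and against melan-a (1.07 ± 0.35, adjusted p = 0.0602). The H3K4 monomethyltransferase Setd7 and the H3K9 and H3K36 demethylase Kdm4a differed by -0.46 ± 0.29 and 0.05 ± 0.24 in the same comparison (adjusted p = 0.243 and 0.898). Kdm2a, an H3K36 demethylase of CpG islands, did not pass between 4C11+ and melan-a (-0.67 ± 0.23, adjusted p = 0.0703). Kdm7a, an H3K9 and H3K27 demethylase, varied more within lines than between them. Its libraries of 4C spanned 5.00 to 7.15, those of 4C11- 3.27 to 5.90 and those of 4C11+ 3.73 to 5.98, with an SD within lines of 1.19.

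The transcripts of the members were long, with a median exonic length of 8225 bases against 4067 for all genes, and 45.9% of them exceeded 9000 bases against 11.6% of all genes. The libraries differed by gene length. In 4C11- replicate 1 genes over 12000 bases lay 0.67 below their mean over the libraries (median of 715 genes), and in 4C11+ replicates 1 and 2 they lay 0.24 and 0.31 below it, while 4C11+ replicate 3 lay 0.22 above. Ash1l, at 3.84 in 4C11- replicate 1 and at 6.41 and 6.87 in the other 2 libraries of the line, and Setd2, at 5.40 against 7.24 and 7.85, are members in which that library stands apart. Between 4C11+ and the other lines, the median difference of all genes went from 0.25 for exonic lengths up to 3000 bases to 0.06, -0.01, -0.15 and -0.17 in the classes up to 6000, 9000 and 12000 bases and over. The medians of the members in the same classes were 0.50, -0.23, -0.02, -0.52 and -0.43 (4, 19, 10, 13 and 15 members). When the trend with length was removed from each library, an alternative added after the data were seen, 23 members passed in this comparison instead of 19. Kmt2a was then at -1.72 ± 0.21 (adjusted p = 8.61e-05), Kdm5c at -1.83 ± 0.20, Nsd3 at -0.88 ± 0.18 and Setmar at 2.08 ± 0.31. Kdm1b lost its call (adjusted p = 0.0506), and Nsd1 (-0.56 ± 0.16, adjusted p = 0.0197), Suv39h1 (0.72 ± 0.26, adjusted p = 0.0484), Kmt5b, Prdm10 and Setd5 gained one. In other comparisons Kmt5c, Smyd3 and Kdm2b lost a call with the trend removed (adjusted p = 0.0588, 0.0605 and 0.123).

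**Figure D5:**
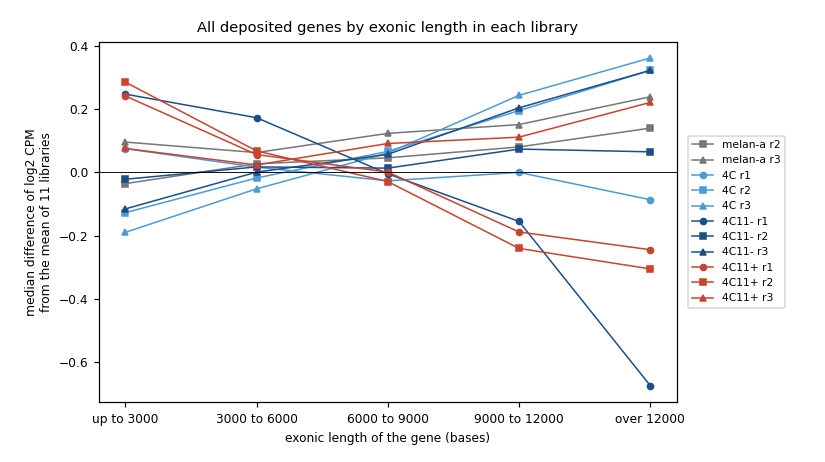
For each library (line colour and marker) the median difference of all deposited genes from their mean over the 11 libraries (y axis, log2 CPM) is drawn in 5 classes of exonic length (x axis, bases). Genes over 12000 bases, a class with 15 members, lie 0.67 below the mean in 4C11- replicate 1 and 0.24 and 0.31 below it in 4C11+ replicates 1 and 2.

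Partners of the enzymes, genes of their complexes and readers, were examined as a list. Between 4C11+ and the other lines 18.3% of all genes were higher and 15.8% lower, with a median of 0.08. Of 35 measured partners of 36 listed, 4 were higher and 4 lower in 4C11+, with a median of -0.24. Lower were Psip1 (LEDGF, which tethers Kmt2a to chromatin, -1.66 ± 0.47, adjusted p = 0.0171), Rcor2 (-1.06 ± 0.32, adjusted p = 0.0226), Aff1 and the Kdm5c partner Zmynd8 (-0.82 ± 0.27, adjusted p = 0.0367). Higher were Rcor1 (0.78 ± 0.20, adjusted p = 0.0106), Dpy30, a core subunit of the Kmt2 complexes (0.88 ± 0.25, adjusted p = 0.0164), and the H3K36 methylation readers Morf4l1 and Zmynd11. For all 4 lower partners and for Rcor1 the libraries of 4C11+ overlapped those of the other lines. For Dpy30, Morf4l1 and Zmynd11 they did not overlap. Rcor1, Rcor2 and Rcor3 are scaffolds of the CoREST complex of Kdm1a, and Rcor3 did not pass in this comparison, but was higher in 4C than in melan-a (1.42 ± 0.43, adjusted p = 0.0438) and in the mesenchymal-like than in the epithelial lines (0.85 ± 0.29, adjusted p = 0.0426). Between 4C11+ and 4C11-, which share the 4C11+ libraries with this comparison, 4 partners were higher and 6 lower, against 15.6% and 15.4% of all genes. Among the lower were Ash2l and Wdr5, core subunits of the Kmt2 complexes (-0.53 ± 0.18 and -0.65 ± 0.23, adjusted p = 0.0459 and 0.0465). The calls of partners and of the lists below are given without the alternatives, and several lie near the threshold. No partner passed between 4C11+ and melan-a, where 15.9% of all genes passed.

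Of 12 measured enzymes of related families (13 listed), Mecom, Riox1 and Jmjd6 were higher in 4C11+ than in the other lines and none was lower. Of all genes 18.3% were higher and 15.8% lower. The H3K27 methyltransferases Ezh1 and Ezh2 did not pass. Hr, a Jumonji protein of skin and hair follicles, was at 3.29, 2.99 and 2.15 in 4C and at 7.42, 6.48 and 5.78 in 4C11-, higher by 3.75 ± 0.46 (adjusted p = 0.00157) in a step in which few genes changed. Of the 14 genes of methyl donor and cofactor supply, all measured, 3 were higher and 2 lower in 4C11+, where 18.3% and 15.8% of all genes were. Ahcy, which clears the product that inhibits methyltransferases, was at 7.64 in both libraries of melan-a and 7.68, 7.83 and 7.66 in 4C11+, against 8.51 to 9.25 in the mesenchymal-like libraries (1.30 ± 0.16 between the phenotypes, adjusted p = 6.67e-05). Mtrr, the reductase that restores methionine synthase, was higher in 4C11+ (1.16 ± 0.22, adjusted p = 0.00205). Of the 12 proliferation markers none passed between 4C11+ and the other lines, where 34.0% of all genes passed. Mcm6 was higher in 4C and in 4C11+ than in melan-a (1.26 ± 0.26 and 1.23 ± 0.26, adjusted p = 0.00684 and 0.0101), and Mcm6 and Top2a were higher in the mesenchymal-like than in the epithelial lines (0.84 ± 0.18 and 1.55 ± 0.47, adjusted p = 0.00384 and 0.026). The part of proliferation in the results on the enzymes was not tested. The summed level of the markers lay between 10.9 and 12.7 over all libraries, with 11.5 to 12.0 in 4C11+.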

How the data were processed

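Total RNA of the 11 libraries was depleted of ribosomal RNA, and stranded libraries were sequenced. Per the labels and the study's methods, the authors trimmed reads with Trimmomatic, aligned them with STAR to GRCm38 (versions not given in the sources used here), counted them per gene, retained genes reaching 1 CPM in 4 or more libraries, and deposited log2 CPM made with limma voom. The libraries share 1 highest value, 13.69, as after a quantile normalization. Symbols, positions and exonic lengths came from GENCODE M21 (GRCm38), and 24 of the 14272 genes had no symbol. Setd1a overlaps another gene on its strand, so its reads may be shared.

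The deposited values were fitted with limma 3.58.1 (R 4.3.3), using 1 coefficient per line, a mean-variance trend and two-sided Benjamini-Hochberg adjustment over all 14272 genes, at 0.05. The fit was tested on simulated data. Depth was estimated from read steps, approximately 3500000 to 7420000 reads a library, which limits the precision of low values. Named members were those the study discusses, those past the threshold without overlap between groups, and those absent from a line. Members and lists were chosen with earlier results of these data known. Alternatives changed the normalization, a filter at a mean log2 value of 1, a pseudocount of 1 CPM, the replicate block, the variance trend, the libraries in the fit and each library left out. Removing the length trend and averaging 4C11+ replicates 1 and 2 were added after the data were seen. Means ± SE are log2 differences. Tables were handled in Python 3.11.15 with pandas 2.3.3, NumPy 2.4.6, and matplotlib 3.10.9. Replicate numbers were not used to pair the libraries in the main fit. In the text, 1 member is counted but not reported by name here.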

Additional observations from a re-analysis of the deposited data

Results flagged for a closer look

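For 6 members, 9.84% of them all, the difference between the tumorigenic and the non-tumorigenic line was not the same in the 2 pairs of lines. Each pair sets a single line against a single line, so the phenotype cannot be told apart from the lines. The difference of 4C11+ from melan-a (epithelial) less that of 4C11- from 4C (mesenchymal-like) was tested in the same limma fit. Of all genes 9.83% passed, so the count of members is at the share of all genes. Kdm5c differed by -1.91 ± 0.37 (log2, SE, adjusted p = 0.0092), with a fall in the epithelial pair (-1.97) and a difference of -0.06 in the mesenchymal-like pair. Nsd3 differed by -1.75 ± 0.41 (adjusted p = 0.022) and Kdm1a by -1.51 ± 0.37 (adjusted p = 0.0248). Prdm16, higher in the tumorigenic line of both pairs, differed by 2.79 ± 0.73 (adjusted p = 0.0348), or 2.50 with absent lines set to 3 reads. Prdm11 differed by 8.03 ± 0.49 (adjusted p = 4.16e-06), or 5.56 with 3 reads, and was absent from melan-a alone. Smyd1 differed by -5.31 ± 1.42 (adjusted p = 0.038), or -2.22 with 3 reads, and rests on few reads.

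The calls of Kdm5c and Prdm11 held under all 18 alternatives. Those of Kdm1a, Nsd3, Prdm16 and Smyd1 were lost without melan-a replicate 2 or 4C11+ replicate 1, with a highest adjusted p of 0.0898, 0.0722, 0.0949 and 0.142 over the alternatives. The calls of Kdm1a, Nsd3 and Prdm16 were also lost without 4C11+ replicate 2, and that of Kdm1a without 4C replicate 2 or 3 or 4C11- replicate 2. Prdm16 and Smyd1 also lost theirs without any one library of 4C, 4C11- replicate 1 or 3, or 4C11+ replicate 3, and Smyd1 without 4C11- replicate 2. Melan-a has only 2 libraries and differs from the rest by PMA, and the part of PMA in these differences cannot be told apart from the line.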

How the results depend on the processing

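The number of members past the threshold moved by more than 1.5 times in these cases. Between 4C and melan-a, 2 members passed among genes with a mean log2 value of at least 1, and 2 to 7 with each library left out in turn. Between 4C11- and 4C, 2 passed when the compared lines alone were fitted, and 1 to 2 with each library left out. Between 4C11+ and 4C11- each library left out gave 11 to 19. Between 4C11+ and melan-a, 6 passed with the compared lines alone, 5 with 4C11+ replicates 1 and 2 averaged, and 4 to 14 with each library left out. In the difference of differences, 2 passed with these replicates averaged, and 2 to 7 with each library left out. The counts of the other comparisons stayed within 1.5 times, at 13 to 21 for the phenotypes and 14 to 22 for 4C11+ against the other lines with each library left out. No call of the main fit reversed its direction in any of these fits. The causes of the moves were not tested.

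Same-numbered libraries of different lines had correlations of their deviations from -0.23 to 0.39 (median 0.15), with 8 of 15 over 0.1. Pairs with other numbers ran from -0.42 to 0.34 (median -0.09), with 11 of 30 over 0.1. These values do not settle whether the numbers pair the libraries, and the main fit did not pair them. With the replicate block, 4, 1, 19, 20, 21, 10 and 6 members passed (4C against melan-a, 4C11- against 4C, 4C11+ against 4C11-, phenotypes, 4C11+ against the other lines, 4C11+ against melan-a, difference of differences). The 4C11+ replicates 1 and 2 were the closest pair of libraries (r = 0.981 across genes). They differed by more than sampling noise (chi-square per degree of freedom 1.38, against 1.63 to 4.42 for the other pairs), and were used as 2 libraries. For members near 3 reads the depth leaves the size of a fold change poorly known.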
